A study of Homo sapiens with 10 samples.

Results

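The human mitochondrial genome is a small circular DNA that is transcribed on its own, and its 37 transcripts were followed here by taking every row of the count table whose gene symbol begins with MT-. These were 37 of 57353 symbols, made up of 13 mRNAs, 2 rRNAs and 22 tRNAs. All mRNAs and rRNAs passed the expression filter, as did 11 of the 22 tRNAs, so that 26 members were tested. The counts came from 10 bulk RNA samples of LNCaP-C4-2 cells, a castration-resistant prostate cancer line. All samples shared the parental line and had been transduced with lentivirus. NT cells (2 samples) carried a control shRNA and KD cells (3 samples) an shRNA against CPT1A, and both were selected with puromycin at 1 µg/ml. EV cells (2 samples) carried an empty vector and OE cells (3 samples) a CPT1A cDNA, and both were selected with blasticidin at 5 µg/ml. CPT1A is the enzyme that attaches long-chain fatty acids to carnitine so that mitochondria can import and oxidise them. Each kind of cell was a single transduced line, and separate transductions were not named, so p-values measure the spread between samples, which may be technical. In bulk RNA, fewer cells with a transcript and less of it per cell cannot be told apart.

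The mitochondrial genome is read from both strands as long precursor RNAs, which are cut mostly at the tRNAs that lie between the other genes. The heavy-strand precursor gives both rRNAs, most tRNAs and all mRNAs but MT-ND6, which comes from the light strand. Its mRNAs encode subunits of respiratory complexes I, III, IV and V, whose other subunits come from nuclear genes. Several of these mRNAs end in a partial stop codon, which becomes a full one only when a poly(A) tail is added.

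The ends of the transcripts the results turn on are shown first, as the last 30 bases of each gene on GRCh38 with the encoded stop codon bases in capitals. MT-ND3 (chrM:10375-10404, plus strand), MT-ND2 (chrM:5482-5511, plus strand) and MT-ND1 (chrM:4233-4262, plus strand), which fell most in KD cells among the mRNAs, end in partial stop codons. So do MT-CO3, MT-ND4 and MT-CYB, whose changes lay within the range of the mRNAs whose annotated gene holds a complete stop. MT-CO1 (chrM:7416-7445, plus strand), MT-ND5 (chrM:14119-14148, plus strand) and MT-ND6 (chrM:14149-14178, minus strand), which were not called lower, encode all 3 bases.
MT-ND3 end: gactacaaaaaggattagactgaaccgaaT
MT-ND2 end: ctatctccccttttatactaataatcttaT
MT-ND1 end: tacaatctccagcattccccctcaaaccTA
MT-CO1 end: ttcgaagaacccgtatacataaaatctAGA
MT-ND5 end: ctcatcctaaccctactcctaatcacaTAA
MT-ND6 end: attgtaattgagattgctcgggggaatAGG

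Some members overlap, which bears on how their reads could be assigned. MT-ATP8 and MT-ATP6 share 46 bases on the same strand, and MT-ND4L and MT-ND4 share 7, shown in capitals with 10 flanking bases on each side (chrM:8517-8582 and chrM:10750-10776, GRCh38, plus strand). How reads over shared bases were assigned is not given in the sources used here, so the values of these 4 genes are less certain. No tRNA lies between the genes of a pair, so a pair may share an RNA. Its members are counted apart below, but their changes need not be independent results.
MT-ATP8 and MT-ATP6: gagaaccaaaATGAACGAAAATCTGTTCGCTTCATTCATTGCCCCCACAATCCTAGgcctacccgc
MT-ND4L and MT-ND4: acctactccaATGCTAAaactaatcgt

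Sample depth was 23555205 to 28615770 counts. CPT1A, the targeted gene, was checked first and matched the labels in every sample. Its counts after TMM scaling, in CPM (counts relative to the scaled library size), were 265.5 and 261.7 in NT, 81.25, 86.44 and 86.18 in KD, 325.7 and 317.7 in EV, and 869.8, 913.8 and 861.1 in OE. All 9 prostate luminal markers had counts in every line. They summed to 6356 to 6636 CPM in NT against 9138 to 9993 in KD, and to 8726 to 9157 in EV against 12197 to 12663 in OE. At an adjusted p under 0.05 (edgeR), 7 of the 9 were higher and 1 lower in KD, where 29.1% of all tested genes were higher and 28.4% lower. In OE 7 were higher and 2 lower, where 25.6% of genes were higher and 26.4% lower. The controls differed too, with 8 higher and 1 lower in EV than in NT, where 18.5% of genes were higher and 15.5% lower. Another 10 markers of stromal, immune, endothelial and basal cells summed to 15.21 to 16.55 CPM in EV and 17.09 to 17.71 in NT, and to 20 to 21.94 in OE and 23.25 to 25.17 in KD, with CD3E, PECAM1 and KRT5 at 0 throughout. The RNA markers were less even. Nuclear-retained lncRNAs (MALAT1, NEAT1 and KCNQ1OT1) summed to 2037 to 2131 CPM in NT and 637.1 to 761 in KD, and to 1474 to 1527 in EV and 469.6 to 628 in OE. RNAs without a poly(A) tail, of which 4 of 8 were at 0 in all samples, summed to 23.31 to 27.43 CPM in NT against 12.03 to 15.03 in KD, and to 17.44 to 19.27 in EV against 7.737 to 14.47 in OE. Both RNA lists were lower in KD and in OE than in the matched control, the sums of the luminal markers and of the markers of other cells were higher, and their part in the results below was not tested.

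Mitochondrial transcripts took 13.07% and 13.18% of all counts in NT and 10.35%, 11.46% and 10.6% in KD. With EV their share was 12.51% and 12.52%, and with OE it was 13.45%, 12.68% and 13.56%. The KD samples were thus below all others, and each OE sample was above both EV samples. The 13 mRNAs and the 2 rRNAs did not divide the share in the same way across the lines. The mRNA share averaged 10.61% ± 0.292 (SD, n = 2) with NT against 8.981% ± 0.494 (n = 3) with KD, and 10.29% ± 0.091 (n = 2) with EV against 9.977% ± 0.49 (n = 3) with OE, and its OE values, from 9.417% to 10.33%, overlapped those of EV. The rRNA share was 2.51% ± 0.213 with NT against 1.822% ± 0.0879 with KD, and 2.22% ± 0.0816 with EV against 3.249% ± 0.122 with OE, with no overlap between OE and any other line. An exact permutation test of 2 against 3 samples cannot reach a p of 0.05, so these shares are given without a test.

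**Figure D1:**
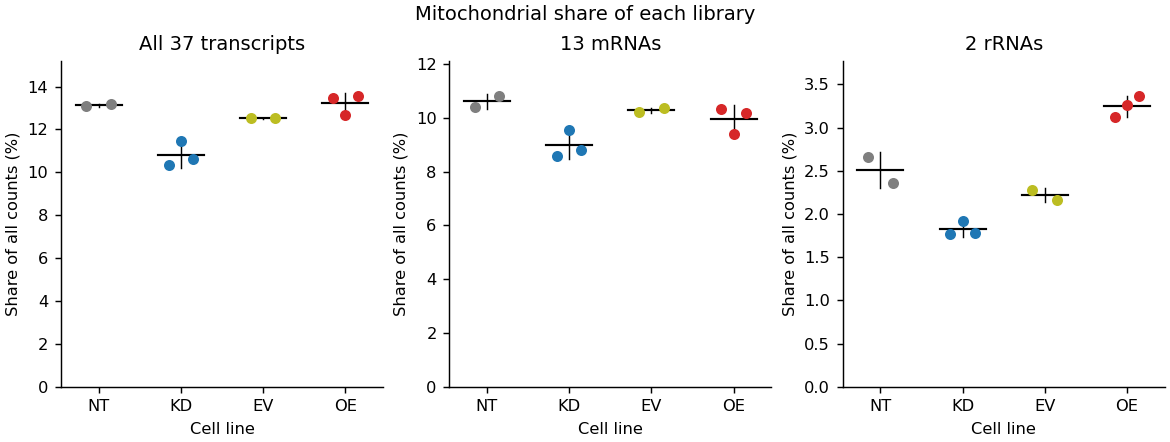
Share of all counts (%, vertical axes) of the 37 mitochondrial transcripts, the 13 mRNAs and the 2 rRNAs in each sample (points) of the 4 cell lines (horizontal axes), with the mean (horizontal bar) and SD (vertical line). The KD samples lie lowest for all transcripts, at 10.35% to 11.46%, and the OE samples lie highest for the rRNAs, at 3.123% to 3.367%.

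The rRNAs, which form the core of the mitochondrial ribosome, moved in opposite directions in the 2 arms. MT-RNR2, the large-subunit rRNA (chrM:1671-3229), had 23477 and 20873 CPM in NT, 14977, 16961 and 15084 in KD, 20041 and 18918 in EV, and 29256, 30951 and 31559 in OE. Every KD sample lay below both NT samples and every OE sample above both EV samples. MT-RNR1, the small-subunit rRNA (chrM:648-1601), had 2879 and 2439 CPM in NT, 1945, 2026 and 1801 in KD, 2516 and 2330 in EV, and 3492, 3767 and 3897 in OE, in the same order of lines.

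By the edgeR quasi-likelihood test, MT-RNR2 was 1.57-fold higher in OE than in EV (log2 fold change 0.65 ± 0.064 SE, Benjamini-Hochberg adjusted p = 1.32e-08) and MT-RNR1 1.53-fold higher (0.62 ± 0.065, adjusted p = 3.83e-08). In KD against NT, MT-RNR2 was 1.41-fold lower (-0.50 ± 0.062, adjusted p = 2.53e-07) and MT-RNR1 1.38-fold lower (-0.47 ± 0.064, adjusted p = 9.95e-07). The interaction, which is the change from EV to OE minus the change from NT to KD, was 1.15 for MT-RNR2 (adjusted p = 2.64e-10) and 1.09 for MT-RNR1 (adjusted p = 9.88e-10). These libraries were built from polyadenylated RNA, so a count of rRNA covers only the molecules such a method recovers. The counts of MT-RNR2 stood to those of MT-RNR1 in a ratio of 7.702 to 8.559 in all 10 samples. Between the control lines, MT-RNR2 was lower in EV than in NT (-0.19, adjusted p = 0.0389), a call that was lost without NT replicate 1 (-0.10, adjusted p = 0.434), without EV replicate 1 (-0.24, adjusted p = 0.0595), without EV replicate 2 (-0.14, adjusted p = 0.261) and without OE replicate 1 (-0.19, adjusted p = 0.0512).

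Among the 13 mRNAs, 10 were lower and 1 was higher in KD than in NT at an adjusted p under 0.05, where 57.5% of all 17230 tested genes were called, 28.4% lower and 29.1% higher. Their median log2 fold change was -0.28, against -0.02 over all tested genes. In OE against EV, 4 were higher and 0 lower, where 52% of genes were called, 25.6% higher and 26.4% lower. Their median was 0.06, against -0.02 over all tested genes. Scaling to library size alone put the median of all genes in this comparison at -0.117. The OE calls then turned to 0 higher and 3 lower, so the direction of the small mRNA changes in OE depends on the scaling. At the stricter limit of 0.0001, 4 mRNAs were lower in KD, where 29.1% of genes were called (12.8% lower, 16.4% higher), and 0 were called in OE by the edgeR test, where 21.9% were (11.6% higher, 10.3% lower).

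**Figure D2:**
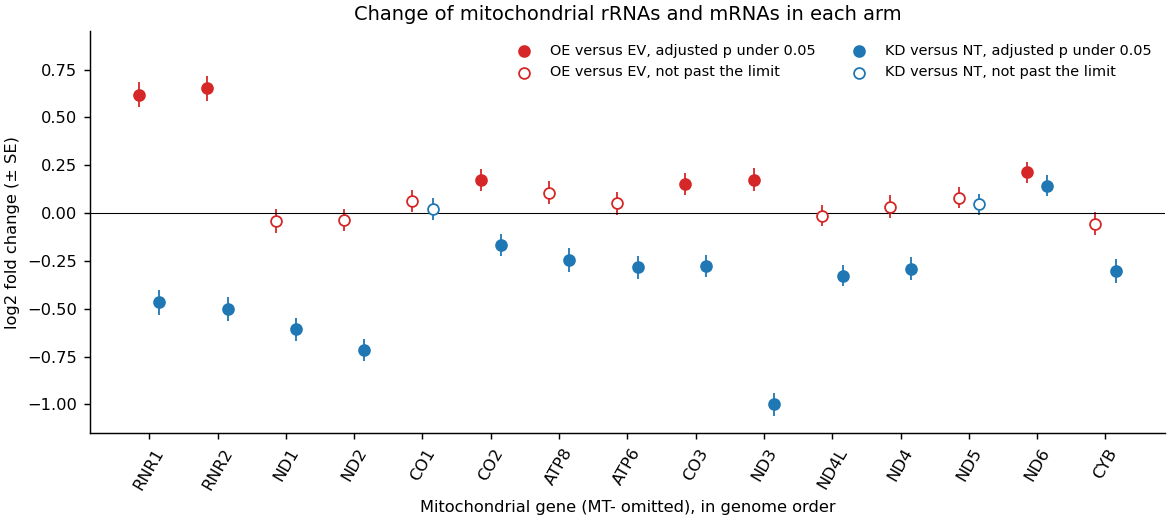
Log2 fold change (vertical axis) with its SE (lines) from the edgeR fit for the 2 rRNAs and 13 mRNAs in genome order (horizontal axis), for OE against EV (red) and KD against NT (blue), with filled points at an adjusted p under 0.05. In KD the lowest points are MT-ND3 at -1.0, MT-ND2 at -0.72 and MT-ND1 at -0.61, and in OE the rRNAs stand above all mRNAs at 0.62 and 0.65.

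Complex I, which takes electrons from NADH, has 7 mitochondrial subunits, and the largest falls in KD were among them. MT-ND3 (chrM:10059-10404) had 3713 and 3775 CPM in NT, 1703, 2102 and 1799 in KD, 3471 and 3498 in EV, and 3939, 3958 and 3910 in OE. All KD samples lay below every other sample. It was 2-fold lower in KD than in NT (log2 fold change -1.0 ± 0.06 SE, adjusted p = 7.83e-13, edgeR). In OE it was 0.18 higher than in EV (adjusted p = 0.0195), a call that was lost without either EV sample (0.19 without EV replicate 1, adjusted p = 0.0778, and 0.18 without EV replicate 2, adjusted p = 0.0876). Its interaction of 1.18 (adjusted p = 9.89e-11) was the largest among the mRNAs and rRNAs, though it exceeded that of MT-RNR2 by less than its SE of 0.087.

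MT-ND2 (chrM:4470-5511) had 7487 and 7907 CPM in NT, 4438, 5099 and 4509 in KD, 7170 and 7342 in EV, and 7357, 6697 and 7166 in OE. MT-ND1 (chrM:3307-4262) had 10515 and 11072 CPM in NT, 6723, 7820 and 6703 in KD, 10560 and 10470 in EV, and 10568, 9671 and 10424 in OE. For both, KD stood below all other samples, while OE and EV overlapped. MT-ND2 was 1.64-fold lower in KD (log2 fold change -0.72 ± 0.058, adjusted p = 1.67e-10, edgeR) and MT-ND1 1.52-fold lower (-0.61 ± 0.061, adjusted p = 6.92e-09). Neither passed the test in OE (-0.04 for each, adjusted p = 0.606 for MT-ND1 and 0.629 for MT-ND2), and with scaling to library size alone both were called lower, at -0.14 (adjusted p = 0.0329 and 0.0316).

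The other complex I mRNAs moved less. MT-ND4 (chrM:10760-12137) ranged from 12269 to 13735 CPM in KD and from 15397 to 16038 in NT (log2 fold change -0.29, adjusted p = 0.000159, edgeR), and MT-ND4L (chrM:10470-10766) from 2045 to 2269 CPM in KD and from 2652 to 2693 in NT (-0.33, adjusted p = 1.64e-05). In OE neither passed the test, at 0.03 and -0.02. MT-ND5 (chrM:12337-14148) had 4088 and 3940 CPM in NT, 4129, 4339 and 3959 in KD, 4406 and 4320 in EV, and 4440, 4442 and 4949 in OE, and passed the test in neither arm.

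MT-ND6 (chrM:14149-14673, minus strand), the mRNA of the light strand and the member with the fewest counts among the mRNAs, was the only mRNA called higher in KD. It had 147.5 and 138.7 CPM in NT, 155.4, 156.4 and 162.3 in KD, 134.2 and 148.5 in EV, and 158.2, 155.6 and 177.2 in OE. The KD values lay above both NT values and the OE values above both EV values (log2 fold change 0.14, adjusted p = 0.0347 in KD, and 0.21, adjusted p = 0.00327 in OE, edgeR). The KD call was lost without NT replicate 2 (0.10, adjusted p = 0.276) and without KD replicate 3 (0.12, adjusted p = 0.0999), and the OE call without EV replicate 1 (0.16, adjusted p = 0.0909). Whether the counting used strand is not given in the sources used here, so reads of heavy-strand precursors that run across MT-ND6 may be included.

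Complex IV, cytochrome c oxidase, has 3 mitochondrial subunits. MT-CO1 (chrM:5904-7445), the catalytic subunit, had 18718 and 19727 CPM in NT, 18756, 21114 and 18685 in KD, 19149 and 19289 in EV, and 20268, 19196 and 20781 in OE, and its values overlapped in both arms (log2 fold change 0.02, adjusted p = 0.77 in KD, and 0.06, adjusted p = 0.385 in OE, edgeR). The sign of these values changed in some alternatives. MT-CO3 (chrM:9207-9990) had 14156 and 14451 CPM in NT, 11085, 12963 and 11372 in KD, 12500 and 12472 in EV, and 14119, 13602 and 13912 in OE. It was lower in KD (-0.28, adjusted p = 0.000234), higher in OE (0.15, adjusted p = 0.0315) and lower in EV than in NT (-0.20, adjusted p = 0.0192). The OE call was lost without either EV sample and without OE replicate 1 or 3 (0.14 to 0.17, adjusted p = 0.0662 to 0.136), and the EV call when any single NT or EV sample was left out (-0.21 to -0.18, adjusted p = 0.0662 to 0.116).

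MT-CO2 (chrM:7586-8269) had 8888 and 9013 CPM in NT, 7426, 8749 and 7764 in KD, 8216 and 8066 in EV, and 9440, 8880 and 9201 in OE. It was lower in KD (-0.17, adjusted p = 0.0174, edgeR) and higher in OE (0.17, adjusted p = 0.0161). Without either NT sample or KD replicate 1 the KD call was lost (-0.17 to -0.12, adjusted p = 0.0675 to 0.106), as was the OE call without EV replicate 2 (0.16, adjusted p = 0.116) or OE replicate 1 (0.15, adjusted p = 0.0677).

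The remaining mRNAs encode cytochrome b of complex III and a pair of ATP synthase subunits. MT-CYB (chrM:14747-15887) had 9847 and 10389 CPM in NT, 7690, 8964 and 7960 in KD, 10083 and 10122 in EV, and 10196, 9090 and 9863 in OE. MT-ATP6 (chrM:8527-9207) had 6420 and 6732 CPM in NT, 5120, 5856 and 5232 in KD, 6266 and 6268 in EV, and 6820, 6096 and 6554 in OE. MT-ATP8 (chrM:8366-8572) had 1029 and 1093 CPM in NT, 813.3, 955.7 and 916.1 in KD, 1072 and 1090 in EV, and 1239, 1075 and 1179 in OE. All KD samples lay below both NT samples for these genes, and OE overlapped EV. In KD the log2 fold changes were -0.30 for MT-CYB (adjusted p = 0.000159, edgeR), -0.28 for MT-ATP6 (adjusted p = 0.00019) and -0.25 for MT-ATP8 (adjusted p = 0.00126), and none of these mRNAs passed the test in OE.

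**Figure D3:**
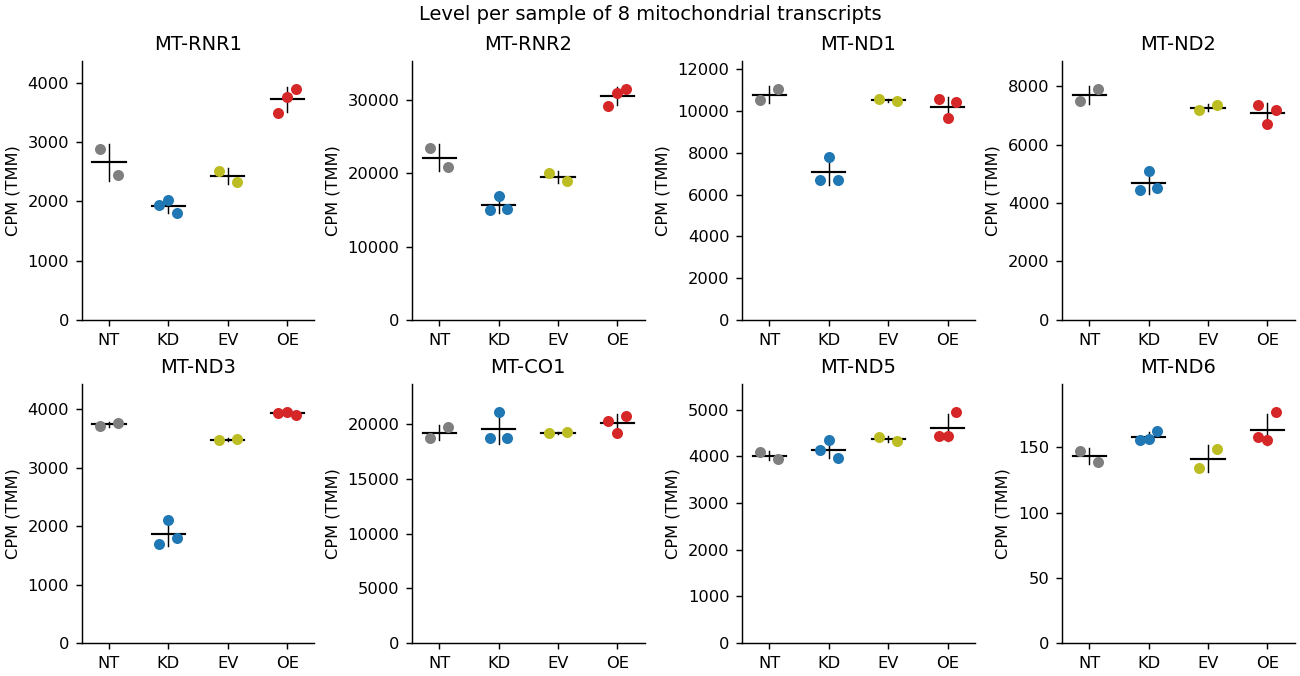
CPM after TMM scaling (vertical axes, from 0) of 8 mitochondrial transcripts in each sample (points) of the 4 lines (horizontal axes), with the mean (horizontal bar) and SD (vertical line). MT-ND1, MT-ND2 and MT-ND3 are lowest in KD, MT-RNR1 and MT-RNR2 are highest in OE, and MT-CO1 overlaps across the lines, between 18685 and 21114 CPM.

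Ratios between members of one sample do not depend on library scaling. MT-CO1 counts stood to MT-ND3 counts at 5.041 and 5.226 in NT, 11.01, 10.04 and 10.39 in KD, 5.516 and 5.514 in EV, and 5.146, 4.85 and 5.315 in OE. KD thus lay apart from the other lines, which spanned 4.85 to 5.516. Against MT-ND2 the ratio of MT-CO1 was 2.497 ± 0.00389 (SD, n = 2) with NT against 4.17 ± 0.0487 (n = 3) with KD, and 2.649 ± 0.0307 (n = 2) with EV against 2.84 ± 0.0758 (n = 3) with OE.

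Within the mRNA counts, MT-CO1 made up 18.3% ± 0.207 in NT and 22.51% ± 0.237 in KD, and MT-ND5 3.825% ± 0.199 in NT and 4.784% ± 0.207 in KD. MT-ND3 made up 3.566% ± 0.0502 in NT and 2.15% ± 0.0826 in KD. Several mRNAs kept their part of the mRNA counts within the spread of the samples, among them MT-CO3 (13.62% ± 0.153 and 13.61% ± 0.157) and MT-ATP6 (6.261% ± 0.0489 and 6.229% ± 0.0177). MT-ND6 counts were 0.1366% ± 0.00947 of the heavy-strand mRNA counts with NT against 0.1833% ± 0.0148 with KD, and 0.1394% ± 0.0095 with EV against 0.1557% ± 0.00961 with OE. The rRNA counts were 0.2368 ± 0.0266 of the mRNA counts with NT against 0.203 ± 0.00217 with KD, and 0.2158 ± 0.00984 with EV against 0.3263 ± 0.022 with OE.

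**Figure D4:**
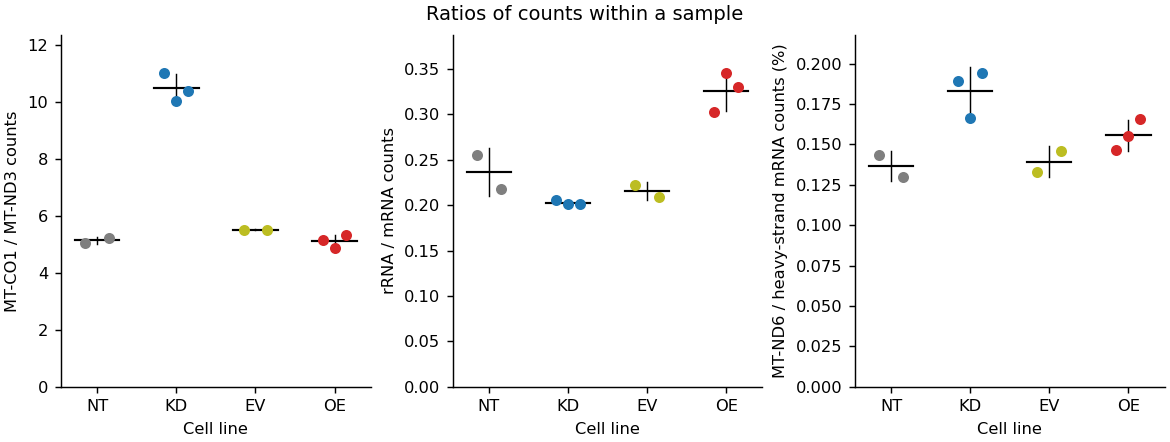
Ratios of counts within each sample (points; vertical axes from 0) for MT-CO1 to MT-ND3, rRNAs to mRNAs, and MT-ND6 as a percentage of the heavy-strand mRNAs, in the 4 lines (horizontal axes), with the mean (horizontal bar) and SD (vertical line). KD is apart in the first panel, at 10.04 to 11.01, and OE in the second, at 0.3024 to 0.3458.

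Levels were compared between genes per kilobase of gene length. As the libraries were built from polyadenylated RNA, such a level, also that of MT-ND6, depends on how well each RNA was recovered, which was not tested. MT-CO3 had the highest level in NT, KD and EV, at 18244 ± 265.8, 15060 ± 1290 and 15926 ± 24.55 CPM per kb. In OE the highest level was that of MT-RNR2, at 19621 ± 765.7 CPM per kb, where the 3 samples, from 18766 to 20243, lay above all values of MT-CO3, from 17349 to 18009. MT-ND3 stood at rank 7 of the 15 rRNAs and mRNAs in NT and at rank 10 in KD, at 10820 ± 126.5 and 5400 ± 602 CPM per kb. MT-ND6 had the lowest level in every line, from 269.2 ± 19.23 CPM per kb in EV to 311.7 ± 22.5 in OE, below MT-ND5, the next mRNA, at 2215 to 2544 CPM per kb on average.

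The 6 mRNAs that end in a partial stop codon (MT-ND1, MT-ND2, MT-CO3, MT-ND3, MT-ND4 and MT-CYB) had log2 fold changes of -1.0 to -0.28 in KD with a median of -0.46, and the other 7 had -0.33 to 0.14 with a median of -0.17, against -0.02 over all tested genes. In OE the medians of the 6 and the 7 were 0.00 and 0.08. The grouping was by annotated gene ends and was not planned beforehand. The ranges in KD overlapped, as MT-CO3, MT-ND4 and MT-CYB lay near MT-ND4L (-0.33), MT-ATP6 (-0.28) and MT-ATP8 (-0.25). MT-ND4L and MT-ATP8 overlap the next gene, and MT-ATP6 shares its last base with MT-CO3. Whether the RNAs of these genes end in the annotated stop was not tested. Among the 6, MT-ND4 and MT-CO3 share bases with a neighbour too, at -0.29 and -0.28. Among the other 7, MT-CO1, MT-CO2, MT-ND5 and MT-ND6 share no base with a neighbour and had -0.17 to 0.14. Whether the kind of stop bears on these changes was not tested. In genome order the first 4 genes other than tRNAs (MT-RNR1, MT-RNR2, MT-ND1 and MT-ND2) all fell in KD, at -0.47, -0.50, -0.61 and -0.72, and the next, MT-CO1, had a value of 0.02. In OE the rRNAs rose and the adjacent MT-ND1 and MT-ND2 had values of -0.04.

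The effect in OE differed from that in KD for 10 of the 13 mRNAs and both rRNAs, all higher by the interaction test, where 44.3% of tested genes were called, 20.3% higher and 24% lower. The 3 other mRNAs were MT-CO1, MT-ND5 and MT-ND6, at 0.04, 0.03 and 0.07 (adjusted p = 0.718, 0.751 and 0.52, edgeR), whose sign turned with scaling to library size alone. The call of MT-CYB (0.25, adjusted p = 0.0238) was lost without KD replicate 1, NT replicate 2, OE replicate 1 or 3 or either EV sample (0.21 to 0.26, adjusted p = 0.0502 to 0.118) and with scaling to library size alone (0.11, adjusted p = 0.238). OE was also set directly against KD, which differ in virus and selection drug as well as in CPT1A. There 11 mRNAs and both rRNAs were higher and none was lower, where 59.8% of genes were called, 29.2% higher and 30.6% lower, with MT-ND3 2.11-fold and MT-RNR2 1.95-fold higher. At the limit of 0.0001, 6 mRNAs were called, where 31.9% of genes were (15.5% higher, 16.4% lower), and by the interaction 3, where 15.9% were (6.94% higher, 8.98% lower). Of the 11 mRNAs called at 0.05 in OE against KD, MT-ND5 (0.15, adjusted p = 0.00845) was not called without KD replicate 3 (0.12, adjusted p = 0.05) or OE replicate 3 (0.10, adjusted p = 0.0963), and neither it nor MT-CO2 was called with scaling to library size alone (0.03 and 0.07, adjusted p = 0.614 and 0.151). Between the controls, EV and NT differed in 1 mRNA, MT-CO3, and in 1 rRNA, MT-RNR2, both lower in EV, where 34.1% of genes were called, 18.5% higher and 15.5% lower. At 0.0001 no mRNA or rRNA was called between the controls, where 8.16% of genes were (5.25% higher, 2.91% lower).

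The tRNA genes, whose products bring amino acids to the mitochondrial ribosome, held few counts, between 425 and 749 per library in all, or 0.001698% to 0.002849% of counts. Mature tRNAs lack a poly(A) tail, and read pairs with reads under 50 bases had been discarded before mapping. For MT-TG, MT-TH, MT-TK, MT-TL2, MT-TN, MT-TR, MT-TS2 and MT-TV, all samples were at 0, where a floor of 3 counts stands for 0.09951 to 0.1358 CPM, for counting error only. MT-TC, MT-TF and MT-TL1 had 0 to 8 counts per sample and were not tested.

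Of the 11 tested tRNAs, 4 were lower and 0 higher in KD than in NT by the edgeR test, where 28.4% of all tested genes were lower and 29.1% higher, so the number of lower tRNAs was not far from that of genes at large. The sequences of the pair with the largest falls, the tRNAs for threonine and tryptophan, are given whole on GRCh38 (chrM:15888-15953 and chrM:5512-5579, plus strand), since they directly follow the mRNAs MT-CYB and MT-ND2.
MT-TT: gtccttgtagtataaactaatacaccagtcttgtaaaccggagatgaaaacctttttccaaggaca
MT-TW: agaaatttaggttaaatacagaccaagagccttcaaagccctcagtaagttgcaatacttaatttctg

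MT-TT had 99 and 77 counts in NT, 21, 21 and 40 in KD, 91 and 51 in EV, and 75, 51 and 57 in OE. The KD samples lay below all others, with a log2 fold change of -1.76 ± 0.25 SE (adjusted p = 1.6e-06, edgeR), while MT-CYB beside it fell by 0.30 on the log2 scale. MT-TW had 38 and 29 counts in NT, 8, 13 and 22 in KD, 38 and 36 in EV, and 22, 13 and 25 in OE, so that it was lower than its control in both KD (-1.29 ± 0.32, adjusted p = 0.0013) and OE (-0.84 ± 0.3, adjusted p = 0.0202). The OE call was lost without either EV sample or OE replicate 2 (-0.85 to -0.67, adjusted p = 0.0776 to 0.0906) and in the DESeq2 Wald test (-0.84, adjusted p = 0.0738).

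MT-TI and MT-TQ, the tRNAs for isoleucine and glutamine, overlap on opposite strands just after MT-ND1 (chrM:4263-4331 and chrM:4329-4400), and reads from them may not be told apart without strand. MT-TI had 5.131 and 5.361 CPM in NT, 2.95, 4.221 and 3.35 in KD, 5.655 and 5.476 in EV, and 6.501, 5.476 and 5.959 in OE. MT-TQ had 7.47 and 6.751 CPM in NT, 4.367, 6.312 and 5.738 in KD, 6.708 and 6.45 in EV, and 8.336, 7.558 and 6.075 in OE. Both were lower in every KD sample than in either NT sample, by 0.58 (MT-TI, log2 fold change -0.58, adjusted p = 0.00152, edgeR) and 0.38 (MT-TQ, -0.38, adjusted p = 0.0295), and overlapped between OE and EV. The MT-TQ call was lost without NT replicate 1 (-0.30, adjusted p = 0.203) and without KD replicate 1 (-0.25, adjusted p = 0.152), and in the DESeq2 Wald test (-0.37, adjusted p = 0.0639).

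The other 7 tested tRNAs (MT-TA, MT-TD, MT-TE, MT-TM, MT-TP, MT-TS1 and MT-TY) passed the test in neither arm, with 6 to 86 counts per sample. By the interaction, where 20.3% of all tested genes were higher and 24% lower, 3 of the 11 were higher and 0 lower. They were MT-TT (1.59, adjusted p = 0.000449, edgeR), MT-TI (0.69, adjusted p = 0.00724) and MT-TQ (0.53, adjusted p = 0.0392), and the last was lost without NT replicate 1, KD replicate 1, either EV sample or OE replicate 1 or 2 (0.41 to 0.58, adjusted p = 0.0636 to 0.149). In OE against KD, MT-TD, MT-TI, MT-TQ and MT-TT, 4 of the 11, were higher and 0 lower, where 29.2% of all tested genes were higher and 30.6% lower, and MT-TQ (0.42, adjusted p = 0.00849) was not called without KD replicate 1 (0.29, adjusted p = 0.069) or OE replicate 1 (0.31, adjusted p = 0.076).

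**Figure D5:**
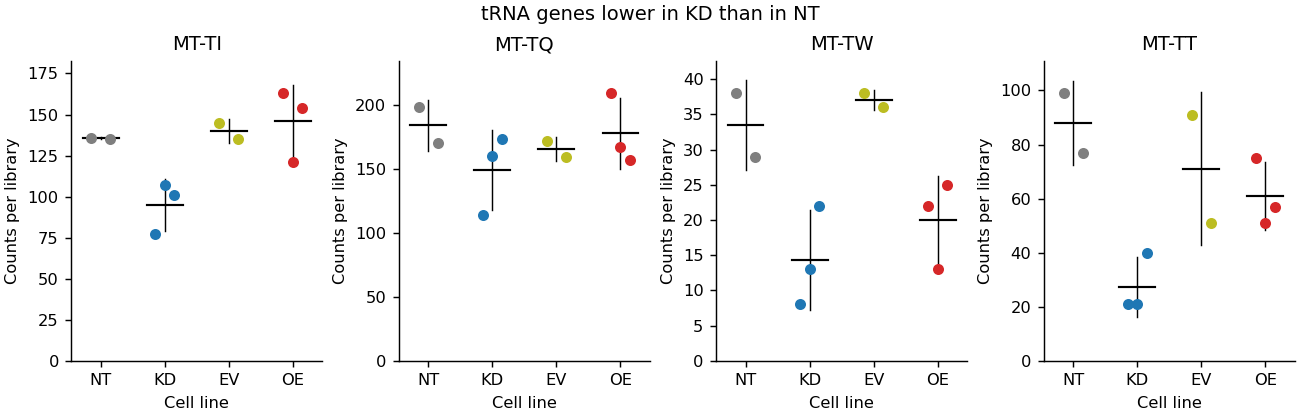
Counts per library (vertical axes, from 0) of the 4 tRNA genes that were lower in KD than in NT, in each sample (points) of the 4 lines (horizontal axes), with the mean (horizontal bar) and SD (vertical line). MT-TT shows 21 to 40 counts in KD and 51 to 99 in the other lines, and MT-TW is below its control in both KD and OE.

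Copies of mitochondrial DNA in the nuclear genome can share reads with the members. Rows named for such copies numbered 407 and held 0.161% to 0.206% of a library, and MTATP6P1, a copy on chromosome 1, took 90.1% to 91.7% of those counts. It differs from MT-ATP6 at 10 of 681 bases (98.5% identity, GRCh38). The 60 bases with the most differences are shown with the differing bases in capitals (MT-ATP6 chrM:8648-8707 and MTATP6P1 chr1:633817-633876, plus strands), to show how little separates their reads. The changes from MT-ATP6 to the copy, counted from the first base of the gene, are C129T, A151C and A175G.
MT-ATP6: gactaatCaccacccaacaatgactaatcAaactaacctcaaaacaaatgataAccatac
MTATP6P1: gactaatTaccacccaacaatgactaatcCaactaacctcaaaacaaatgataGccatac

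MTATP6P1 counts were 26.73% to 28.31% of the MT-ATP6 counts in all 10 samples, and its log2 fold change in KD was -0.31 beside -0.28 for MT-ATP6. MTND2P28 counts were 1.09% to 1.298% of those of MT-ND2 and its change in KD was -0.66 beside -0.72, and MTCO1P12 counts were 0.3628% to 0.4392% of those of MT-CO1. How reads that map to several places were treated is not given in the sources used here, so values of these genes are uncertain to that extent. When the counts of the copies were added to MT-ATP6, MT-ND2 and MT-CO1, which was tried only after seeing the data, each of their called changes stayed called in the same direction.

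Nuclear genes that transcribe or replicate the mitochondrial genome or process or modify its RNA, and 7 nuclear regulators of mitochondrial biogenesis, were counted from lists of 64 genes, all tested. In KD 35 of them rose and 13 fell against NT (median log2 fold change 0.17). In OE 14 rose and 26 fell against EV (median -0.12). The interaction was positive for 5 and negative for 30 at the same limit (median -0.27), against a median of -0.02 over all tested genes. Over all tested genes 29.1% rose and 28.4% fell in KD, and 25.6% rose and 26.4% fell in OE. By the interaction 20.3% of all genes were higher and 24% lower.

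TFAM, which packages mitochondrial DNA and starts its transcription, averaged 46.74 ± 0.792 CPM (SD, n = 2) in NT against 42.92 ± 2.16 (n = 3) in KD, and 39.72 ± 0.134 (n = 2) in EV against 26.54 ± 0.298 (n = 3) in OE. It was 1.5-fold lower in OE than in EV (log2 fold change -0.58, adjusted p = 5.05e-08, edgeR) and did not pass the test in KD (-0.12, adjusted p = 0.0812). POLRMT, the mitochondrial RNA polymerase, rose 1.38-fold in OE (0.46, adjusted p = 9.91e-08), from 90.48 ± 1.59 CPM (SD, n = 2) to 124.8 ± 6.57 (n = 3), with a smaller rise in KD (0.13, adjusted p = 0.0441). Between the controls, EV was higher than NT for POLRMT (0.19, adjusted p = 0.0126, edgeR) and lower for TFAM (-0.234, adjusted p = 0.00739). MTERF3, a regulator of mitochondrial transcription, fell in OE (-0.47, adjusted p = 0.00121) and had a value of -0.04 in KD.

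PNPT1, a subunit of the complex that degrades mitochondrial RNA, rose in KD (0.36, adjusted p = 0.000141, edgeR) and fell in OE (-0.30, adjusted p = 0.00178). PRORP, the nuclease that cuts at the 5′ ends of mitochondrial tRNAs, likewise rose in KD (0.44, adjusted p = 0.00293) and fell in OE (-0.51, adjusted p = 0.00155). PDE12, which removes poly(A) from mitochondrial RNA, rose in KD (0.41, adjusted p = 6.95e-06) and had a value of -0.12 in OE (adjusted p = 0.14). Other genes on this list of 21 moved alike in both arms by the edgeR test. LRPPRC fell in KD (-0.388, adjusted p = 3.51e-07) and in OE (-0.537, adjusted p = 4.52e-09). SLIRP also fell in both (-0.23 and -0.333), while FASTK and TBRG4 rose in both. Of the 21, 12 rose and 4 fell in KD (29.1% and 28.4% of all genes), and 4 rose and 10 fell in OE (25.6% and 26.4%). Of the enzymes that modify mitochondrial tRNA, TRMU rose in KD (0.57, adjusted p = 9.02e-08), MTO1 fell in KD (-0.47, adjusted p = 1.38e-06) and NSUN3 fell in OE (-0.69, adjusted p = 7.28e-06). Between the controls, PDE12 was also higher in EV than in NT (0.262, adjusted p = 0.00606, edgeR) and MTO1 lower (-0.294, adjusted p = 0.00261).

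Of the genes of mitochondrial DNA replication, DNA2, a nuclease and helicase, was 2.16-fold higher in KD (log2 fold change 1.11, adjusted p = 3.2e-07, edgeR), MGME1, a nuclease, 1.73-fold (0.79, adjusted p = 8.74e-09) and POLG, the mitochondrial DNA polymerase, 1.26-fold (0.33, adjusted p = 1.98e-05). DNA2 was lower in OE (-0.47, adjusted p = 0.0178). PPARGC1B and PPRC1, coactivators of mitochondrial genes, rose in KD (0.64 and 0.34) and fell in OE (-0.35 and -0.36), and NRF1, a transcription factor for such genes, fell in KD (-0.45) and rose in OE (0.42), all at an adjusted p of 0.000318 or lower (edgeR). The control lines differed as well. NRF1 was lower in EV than in NT (-0.366, adjusted p = 0.00402, edgeR). PPARGC1B (0.335, adjusted p = 0.00241), PPRC1 (0.176, adjusted p = 0.0137) and POLG (0.209, adjusted p = 0.0104) were higher in EV. For NRF1 the KD mean (15.49 CPM) lay near that of EV (16.44), and the OE mean (22.1) near that of NT (21.2). The PPARGC1B mean of OE (22.21 CPM) was also close to that of NT (22.5).

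The 72 nuclear-encoded subunits of the same respiratory complexes were counted in the same way, and all were tested. In KD 29 of them rose and 13 fell against NT (median log2 fold change 0.06), and in OE 29 rose and 17 fell against EV (median 0.07). The interaction was positive for 16 and negative for 17 (median -0.02). Over all tested genes 29.1% rose and 28.4% fell in KD, 25.6% rose and 26.4% fell in OE, and by the interaction 20.3% were higher and 24% lower, so the interaction calls of the subunits were near those of all genes. Of the 37 nuclear subunits of complex I, 14 were higher, 3 lower and 20 not called in KD. Single subunits went both ways. UQCRB of complex III fell 1.55-fold in KD against NT (-0.63, adjusted p = 5.83e-11, edgeR). It averaged 255.6 ± 18 CPM (SD, n = 2) in NT and 164.8 ± 5.63 (n = 3) in KD. In EV it averaged 164.6 ± 0.283 (n = 2) and in OE 145.7 ± 1.06 (n = 3), so KD lay at the level of the other control line. UQCR11 of the same complex rose 1.51-fold in KD (0.60, adjusted p = 4.23e-06). NDUFB7 of complex I and COX6A1 of complex IV rose in OE (0.50 and 0.29, adjusted p = 1.59e-07 and 0.00313), while COX7B of complex IV fell (-0.32, adjusted p = 7.59e-05) and NDUFV2 of complex I, at 1.474 ± 0.21 CPM (SD, n = 2) in EV and 0.7675 ± 0.242 (n = 3) in OE, fell (-0.91, adjusted p = 0.0138). ATP5MC1 and ATP5MC2, which encode the same protein ring of ATP synthase, both rose in OE (0.22 and 0.39, adjusted p = 0.00112 and 1.5e-06) and moved apart in KD (0.61 and -0.21, adjusted p = 7.15e-10 and 0.00147).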

How the data were processed

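Counts per gene were deposited by the authors, who trimmed read pairs of 150 bases with BBDuk, discarded reads under 50 bases and mapped the rest with STAR 2.6.0a to Ensembl hg38.p12, release 96. Counts are whole numbers for 57353 symbols, and 0 columns were unused. Strand and multi-mapping settings are not given in the sources used here. The 17230 genes passing filterByExpr were scaled with TMM (factors 0.9386 to 1.054) and tested in R 4.3.3 with edgeR 4.0.16, by the quasi-likelihood test on 1 mean per line over all 10 samples, with Benjamini-Hochberg adjustment and a limit of 0.05 (0.0001, as the study set, is an alternative). The common biological coefficient of variation was 0.0446. SD are between samples. Positions and sequences came from GENCODE v44 on GRCh38. The fit was tested on simulated data.

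All mRNAs and rRNAs and the tested tRNAs were named, and from nuclear lists the 3 genes with the smallest interaction p per list, or the largest change each way per complex. Members and lists were chosen with earlier results of these data known. Alternatives were DESeq2 1.42.0 size factors and Wald test, limma-voom (limma 3.58.1), library size alone, scaling without mitochondrial rows, other filters, each pair of groups alone, the replicate block and leaving out each sample.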

Additional observations from a re-analysis of the deposited data

How the results depend on the processing

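The 10 mRNAs and 2 rRNAs lower in KD and the 2 rRNAs higher in OE rest on deep counts, while the tRNA genes hold few counts and can show only large changes. Leaving out each sample in turn gave 9 to 11 called mRNAs for KD against NT, 1 to 5 for OE against EV, 0 to 4 for EV against NT, 10 to 12 for OE against KD and 9 to 10 for the interaction, and 2 called rRNAs throughout except in EV against NT (0 to 2). At an adjusted p under 0.0001, called mRNAs numbered 4 in KD, 0 in OE, 0 in EV against NT, 6 in OE against KD and 3 in the interaction, and rRNAs 0 in EV against NT. For EV against NT, 3 mRNAs and 2 rRNAs were called with no expression filter, and 5 mRNAs and 2 rRNAs with these groups fitted alone. With at least 10 counts required in every sample, the calls of MT-ND6 in KD (0.127, adjusted p = 0.0596, edgeR) and MT-CO3 in OE (0.14, adjusted p = 0.0703) were lost. With library size alone MT-TQ was not called in KD (-0.342, adjusted p = 0.0584), in OE against KD (0.287, adjusted p = 0.074) or by the interaction (0.396, adjusted p = 0.135). Its interaction was also lost in the DESeq2 Wald test (0.535, adjusted p = 0.0713). The cause of these differences was not tested.

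Scaling to library size alone put the median of all genes at -0.117 in OE against EV, -0.148 in OE against KD and -0.151 in the interaction. With TMM scaling each of these medians was -0.02. Library size alone gave MT-CO1 -0.0346 in OE and interactions of -0.0913 for MT-CO1, -0.0991 for MT-ND5 and -0.0659 for MT-ND6. With each sample left out in turn, signs also turned for MT-ND2 in OE (-0.065 to 0.00273, without OE replicate 2), for MT-CO1 in KD (-0.0368 to 0.0622, without NT replicate 1 or KD replicate 2) and for the MT-ND5 interaction (-0.0192 to 0.0683, without OE replicate 3), none of them a call. Without rRNA and tRNA rows the mitochondrial share was 10.89% with NT against 9.148% with KD, and 10.52% with EV against 10.31% with OE. With nuclear copies added it was 13.33% in NT and 12.7% in EV, and over tested genes alone 12.52% in EV.

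Same-numbered samples did not deviate together (mean correlation -0.0028 over 13 pairs, against 0.0016 over 24 other pairs), so the numbers do not pair the samples. With the replicate block, 10 mRNAs were called in KD, as MT-ND6 (0.10, adjusted p = 0.0924, edgeR) was lost, and so was the tRNA MT-TQ (-0.33, adjusted p = 0.0685).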
